A study of Homo sapiens with 8 samples.

Results

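The genes described here are 58 human genes of the G2/M phase, the mitotic spindle and the kinetochore, taken by symbol from a table of 60606 genes. They were measured by RNA-seq of total RNA from HEK293, a cell line that was made from human embryonic kidney. In 4 libraries the cells had received a mimic of the tRNA-Asp-GTC 3' tDR, a fragment from the 3' end of an aspartate tRNA. The 4 control libraries came from cells with a mimic of scrambled sequence. The dose was 50 nM in each group, with Lipofectamine RNAiMax, and the cells were collected at 48 hours, so every library comes from lipid-transfected cells of a single line. No untransfected cells were among the 8 libraries. The labels number the replicates 1 to 4 in each group but do not say whether these were separate cultures. A p-value here therefore reflects only how these samples vary, which may be technical variation.

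As background, a cell enters mitosis when CDK1 bound to cyclin B becomes active. Aurora and Polo-like kinases and mitotic kinesins then build the spindle, and kinetochores attach each chromosome to it. The spindle checkpoint holds the anaphase-promoting complex back until all kinetochores are attached, and CDC20 then directs that complex to securin and cyclin B. Most of these genes are transcribed late in the cell cycle. Their promoters are known for a CHR element, bound by the DREAM and B-MYB complexes, and for CCAAT boxes bound by NF-Y. Because the cells were measured in bulk, fewer cells in G2 and mitosis and less RNA per cell cannot be told apart.

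Many of these genes were slightly lower in cells with the tDR mimic. Of the 54 genes that passed the filter on low counts, 28 were called lower, 1 was called higher and 25 were not called (quasi-likelihood test of edgeR, p adjusted by Benjamini-Hochberg over 17184 genes and under 0.05). Over all tested genes, 11.4% were called lower and 12.8% higher. Among the 4504 tested genes with a mean level within the 10th to 90th percentile of the 54 genes (52.6 to 270.7 CPM, counts per 1000000 counts of the library), 25.5% were called lower and 5.6% higher. The share of the 54 genes called lower was 51.9%. Their median log2 fold change, always given as tDR over control, was -0.18, beside 0.02 over all tested genes and -0.08 over tested genes at the same levels. Of the 54, 49 had a log2 fold change below 0, and the values ran from -0.41 to 0.26. The 28 genes called lower were 10.0% to 24.8% lower, with a median of 15.6%.

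The groups often did not overlap. In 28 of the 54 genes every tDR library lay below every control library, 25 of them called lower and 3 of them not called (PLK4, AURKA and UBE2S). This was so for 10.8% of all tested genes and 23.5% of those at the same levels. How many genes were called, however, varied with the scaling of the libraries. With library size alone as the scaling, 27.8% of the 54 genes were called lower, against 5.28% of all tested genes. These were 15 genes, all among the 28. Over the whole table, the lower genes then made up 21.6% of all calls against 47.1% with TMM scaling. With a smooth on gene length and GC content taken out, 42 of the 54 were called lower, against 24.7% of all tested genes, and the lower genes made up 73.6% of all calls, and with DESeq2's own test they made up 60.2%. The smooth moved the median log2 fold change over the whole table by -0.10. With TMM factors taken again after it, an alternative chosen after seeing the data, 29 of the 54 were called lower, against 13.5% of all tested genes. Relative to the median of all genes, the median of the 54 was -0.19 with TMM, -0.19 with library size alone and -0.16 with either form of the smooth. It was -0.12 with background subtracted, -0.14 with at least 50 counts in 4 libraries and -0.30 with no filter on low counts. Scaling by library size alone shifts all genes by nearly the same amount, 0.08 at the median, so this difference could hardly change with it. Shares and medians of genes at the same levels were computed with TMM scaling and the default filter alone.

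**Figure D1:**
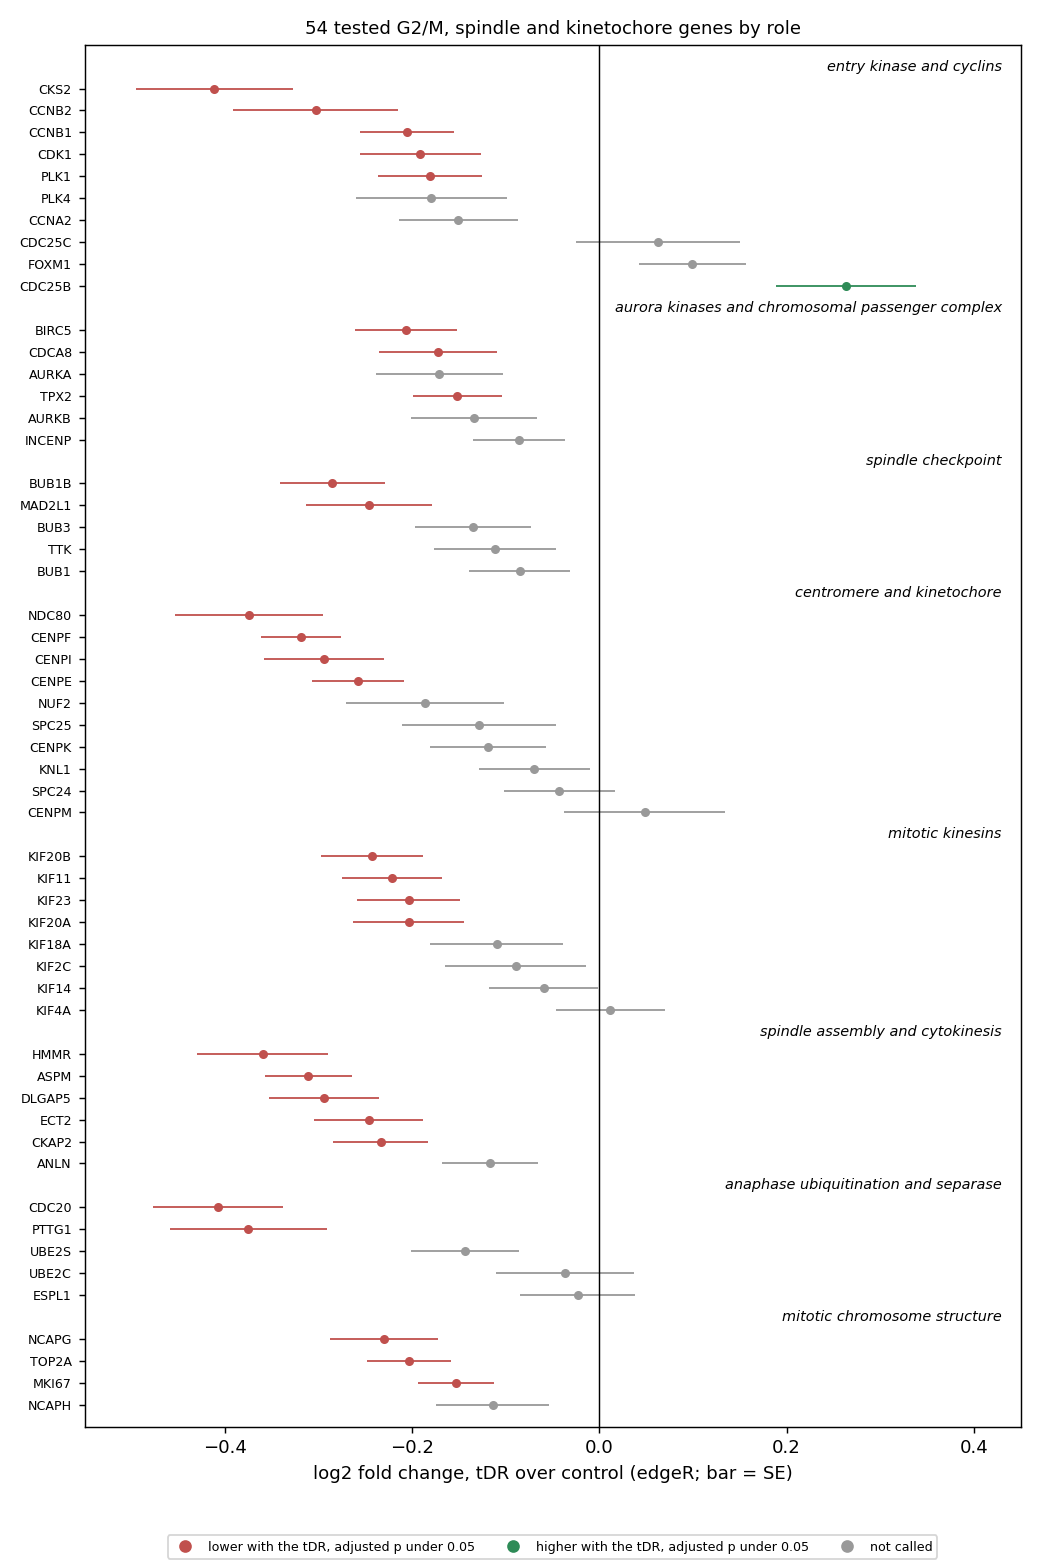
Log2 fold change (tDR over control) of the 54 tested genes by role, with bars of 1 SE from edgeR's quasi-likelihood fit of 4 tDR and 4 control libraries. Most points lie left of 0, 28 genes called lower are in red, and CDC25B is the 1 gene called higher, in green.

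The 8 libraries held 5848305 to 9237986 counts in the tDR group and 6536554 to 10557740 in the control group, and a tested gene of the 54 had between 222 and 12787 counts in a library. The 58 genes together took 0.871%, 0.850%, 0.843% and 0.846% of all counts in the tDR libraries, against 0.941%, 0.911%, 0.907% and 0.913% in the control libraries. The 95% Wilson intervals of these shares, which cover counting error only, ran from 0.837% to 0.879% over the tDR libraries and from 0.900% to 0.947% over the control libraries, so the highest tDR library lay below the lowest control library. The median deviation of the 54 genes from their own mean over 8 libraries was -0.03, -0.10, -0.11 and -0.10 log2 units in the tDR libraries, against 0.10, 0.05, 0.09 and 0.09 in the control libraries. tDR replicate 1 was the tDR library nearest to the controls. All 7 HEK293 markers looked for were detected in every library and passed the filter. Of these, 3 were called lower with the tDR mimic, at log2 fold changes of -0.41 (NEFM), -0.46 (NEFL) and -0.22 (LIN28B) (edgeR adjusted p = 6.11e-08, 4.56e-07 and 0.00209). Another 2 were called higher, at 0.44 (PAX2) and 0.63 (KRT8) (edgeR adjusted p = 0.00808 and 0.00559), and VIM and KRT18 were not called. Other measures moved with the group. Olfactory receptor genes, which should be silent in these cells and so mark background reads, had 58.0 to 65.0 CPM, by library size alone, in tDR libraries and 33.7 to 44.4 CPM in control libraries. The 13 markers of immune, endothelial, liver and fibroblast cells summed to 45.2 to 49.0 CPM in tDR libraries and 24.96 to 33.5 CPM in control libraries. Of these 13, 5 were tested, 3 were higher (PECAM1, CDH5 and COL1A1) and 0 lower, and APOA1 was at 0 in every tDR library. Their part in the changes of the mitotic genes was not tested. The background estimated from the olfactory receptor genes was at most 3.31% of the counts of any tested gene of the 54.

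**Figure D2:**
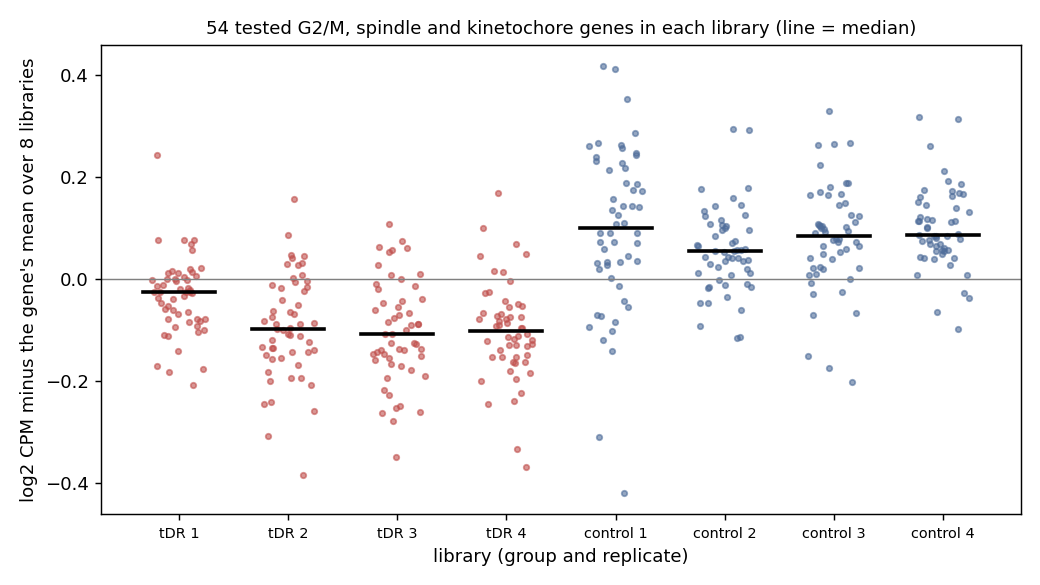
Deviation of each of the 54 tested genes from its mean over the 8 libraries (log2 CPM, points) in each library, with the median as a line. The 4 tDR medians lie between -0.11 and -0.03, and the 4 control medians between 0.05 and 0.10.

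Many promoters of these genes, but not all, carry the motifs their class is known for, and a few are shown here. Whether the motifs bear on the changes in level was not tested. RefSeq promoters (GRCh38.p14), from 250 bases before to 50 bases after the start, were matched to 49 of the 58 genes. The search was for TTTGAA, the core of the CHR element, and CCAAT, each on both strands, and the motifs can overlap each other by a base or more. TTTGAA was in 67.3% of the 49 promoters, against 15.4% of 27305 promoters in all. CCAAT was in 73.5% of the 49, against 35.7% of all, and both were in 53.1%, against 6.08% of all. Among the matched genes called lower (n = 26), TTTGAA was in 76.9%, CCAAT in 76.9% and both motifs in 65.4%. Among the matched tested genes not called lower (n = 19), these shares were 47.4%, 68.4% and 31.6%. Whether the shares differ between these small sets was not tested. A match describes letters in the window and does not show a bound site. The motifs and the genes printed were chosen after the values had been seen. The 120 bases before the start are given 5' to 3' along each gene's own strand, with both motifs, also where they read TTCAAA or ATTGG on this strand, in capitals. CKS2 and CDC20 are shown because they had the largest decreases, and HMMR and MKI67 because their motif copies abut or overlap. PLK1, KIF11 and BUB1B are shown as single CHR matches, and CDC25B because it was called higher and has neither motif in this stretch. CDK1, MAD2L1, CENPE, CENPI, NDC80 and CKAP2, all called lower, also have neither motif in this stretch. The same holds for CDC25C, PLK4, AURKB, NUF2, KIF2C and UBE2S, which were not called.
CKS2 (chr9:89311075-89311194, plus strand): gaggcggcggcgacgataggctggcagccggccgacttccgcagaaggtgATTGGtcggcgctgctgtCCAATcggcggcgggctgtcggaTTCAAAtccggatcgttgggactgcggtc
CDC20 (chr1:43358861-43358980, plus strand): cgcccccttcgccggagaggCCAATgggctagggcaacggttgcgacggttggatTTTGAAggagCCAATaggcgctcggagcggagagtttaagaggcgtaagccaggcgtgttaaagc
HMMR (chr5:163460512-163460631, plus strand): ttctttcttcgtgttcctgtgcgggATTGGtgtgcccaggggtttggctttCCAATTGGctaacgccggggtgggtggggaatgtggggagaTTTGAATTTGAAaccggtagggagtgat
MKI67 (chr10:128126424-128126543, minus strand): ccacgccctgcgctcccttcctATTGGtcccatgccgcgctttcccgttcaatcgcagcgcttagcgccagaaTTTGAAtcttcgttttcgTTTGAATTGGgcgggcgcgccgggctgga
PLK1 (chr16:23678769-23678888, plus strand): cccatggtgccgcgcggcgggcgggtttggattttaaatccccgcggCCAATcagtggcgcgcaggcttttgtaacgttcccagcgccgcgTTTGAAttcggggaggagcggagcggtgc
KIF11 (chr10:92593010-92593129, plus strand): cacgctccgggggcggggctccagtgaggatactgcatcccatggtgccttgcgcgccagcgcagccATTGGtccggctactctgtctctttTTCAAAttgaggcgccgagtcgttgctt
BUB1B (chr15:40160949-40161068, plus strand): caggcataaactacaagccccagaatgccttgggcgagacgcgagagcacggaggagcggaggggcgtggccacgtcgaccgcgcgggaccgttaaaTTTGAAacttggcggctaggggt
CDC25B (chr20:3786831-3786950, plus strand): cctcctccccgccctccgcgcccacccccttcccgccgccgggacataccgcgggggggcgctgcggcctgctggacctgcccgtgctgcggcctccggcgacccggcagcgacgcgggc

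Of the 10 regulators of mitotic entry, 5 were called lower, 1 was called higher and 4 were not called, with a median log2 fold change of -0.18. CKS2, the small subunit that helps CDK1 dock on its substrates, had the largest decrease of the 54 genes. It lies at chromosome 9, 89311198 to 89316703 (GRCh38, GENCODE release 29, plus strand). CKS2 had 52.5, 46.6, 43.1 and 49.5 CPM in the tDR libraries, against 73.2, 54.3, 69.1 and 58.4 CPM in the control libraries. Its level was below every control library in every tDR library, a log2 fold change of -0.41 ± 0.08 (SE) with an adjusted p of 0.000187 (edgeR quasi-likelihood, Benjamini-Hochberg). The decrease of CKS2 came to 24.8%. The cyclin that activates CDK1, CCNB1, had 194, 189.9, 180.0 and 189 CPM in the tDR libraries, against 215, 210.1, 215 and 227 CPM in the control libraries. No tDR library reached a control library, although the step was smaller than that of CKS2, at -0.21 ± 0.05 (SE) on the log2 scale (edgeR, adjusted p = 0.00164). CCNB2, the second B-type cyclin, had 47.4, 42.7, 39.4 and 41.5 CPM in the tDR libraries, against 63.1, 46.9, 52.9 and 47.4 CPM in the control libraries. Here the groups overlapped, since tDR replicate 1 was at the level of control replicates 2 and 4, and control replicate 1 stood highest. CCNB2's log2 fold change was -0.30 ± 0.09 (SE) (edgeR, adjusted p = 0.00839), and without control replicate 1 it was -0.20 and no longer called (adjusted p = 0.0829). Library size alone and background subtraction also lost the CCNB2 call (edgeR adjusted p = 0.0586 and 0.0722).

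CDK1 itself, the kinase of mitotic entry, had 82.8, 79, 78.7 and 77.5 CPM in the tDR libraries, against 98.3, 84, 87.9 and 91.7 CPM in the control libraries. The groups did not overlap, but control replicate 2 lay close to the highest tDR library. The log2 fold change of CDK1 was -0.19 ± 0.06 (SE) with an edgeR adjusted p of 0.024. Its call was lost without tDR replicate 3, tDR replicate 4 or control replicate 1 (edgeR adjusted p = 0.0543, 0.0756 and 0.0773). The CDK1 call was also lost with library size alone, background subtracted or at least 50 counts in 4 libraries (edgeR adjusted p = 0.228, 0.17 and 0.0744). With TMM factors taken again after the smooth on length and GC content it was lost too (edgeR adjusted p = 0.132). PLK1, the Polo-like kinase of spindle assembly and mitotic exit, had 166, 172, 154 and 153 CPM in the tDR libraries, against 166, 176, 200.2 and 189.6 CPM in the control libraries. tDR replicates 1 and 2 lay at the level of the 2 lowest control libraries, so the groups overlapped. PLK1 was called lower at -0.18 ± 0.06 (SE) (edgeR, adjusted p = 0.013), and the call was lost without tDR replicate 3, tDR replicate 4 or control replicate 3 (adjusted p = 0.0545, 0.072 and 0.0592). Library size alone, background subtraction and at least 50 counts in 4 libraries also lost the PLK1 call (edgeR adjusted p = 0.195, 0.167 and 0.051).

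CDC25B, a phosphatase that removes the inhibitory phosphates from CDK1, was the gene called higher and lies at chromosome 20, 3786772 to 3806121 (GRCh38). It had 85.8, 80.8, 78.2 and 74.9 CPM in the tDR libraries, against 54.2, 72.9, 65.3 and 72.9 CPM in the control libraries. Every tDR library was above every control library, with control replicate 1 lowest. The log2 fold change of CDC25B was 0.26 ± 0.07 (SE) (edgeR, adjusted p = 0.00673). Without control replicate 1 it was 0.17 and not called (edgeR adjusted p = 0.0716), and with the smooth on gene length and GC content taken out it was 0.15 and not called (adjusted p = 0.0779). With TMM factors taken again after that smooth, it was 0.24 and called higher (edgeR adjusted p = 0.00581). Its paralogue CDC25C had a log2 fold change of 0.06 and was not called (edgeR, adjusted p = 0.648). FOXM1, the transcription factor that drives late cell cycle genes, had 126, 123, 120.3 and 125 CPM in the tDR libraries, against 112, 121, 117 and 112 CPM in the control libraries. Its tDR and control libraries overlapped at control replicate 2, and the log2 fold change of 0.10 ± 0.06 (SE) was not called (edgeR, adjusted p = 0.203). FOXM1 was called higher with library size alone (0.18, adjusted p = 0.014) and with background subtracted (0.16, adjusted p = 0.0486). CCNA2, cyclin A, and PLK4, the kinase of centriole duplication, had log2 fold changes of -0.15 and -0.18 that were not called. CCNA2 was called lower without control replicate 2 or control replicate 3 (edgeR adjusted p = 0.019 and 0.0445).

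**Figure D3:**
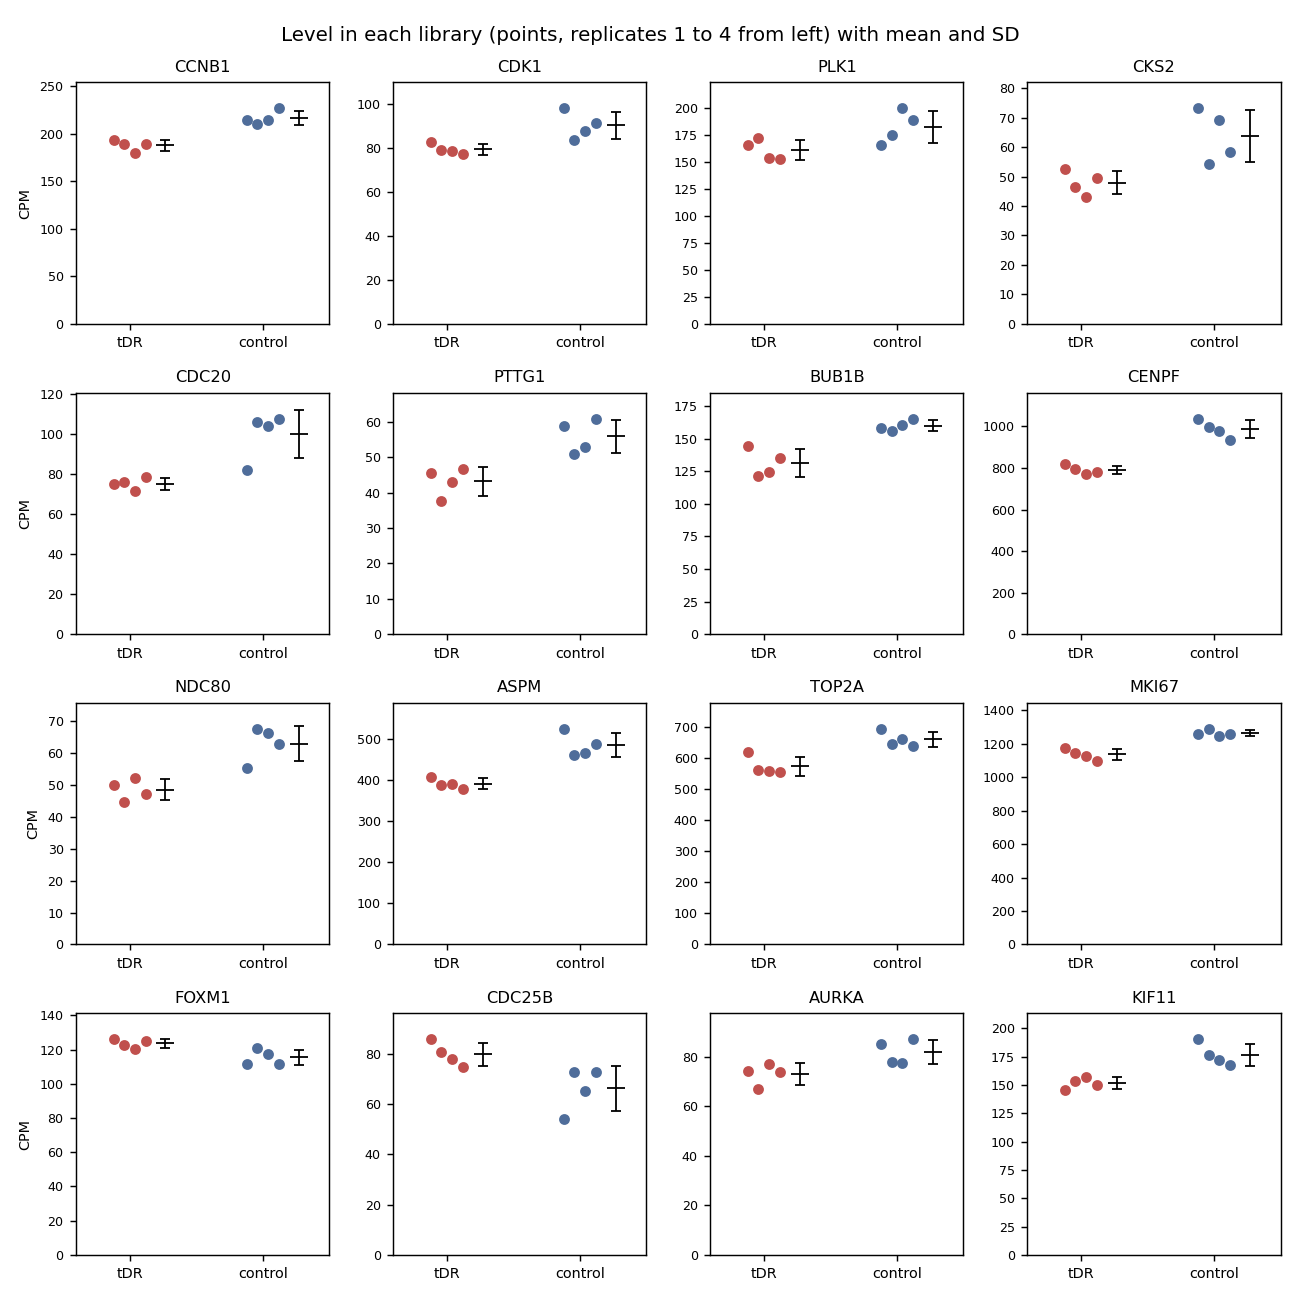
CPM of 16 of the genes in each library (points, replicates 1 to 4 from left in each group) with the mean and SD of 4 libraries, tDR left of control and each axis starting at 0. The genes were chosen after their values had been seen: most stand lower in the tDR libraries, FOXM1 overlaps between groups, and CDC25B stands higher.

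Of 6 genes of the aurora kinases and the chromosomal passenger complex, 3 were called lower and 3 were not called, with a median of -0.16. BIRC5, or survivin, which brings the passenger complex to centromeres, had 169, 147, 155 and 158 CPM in the tDR libraries, against 167, 184, 190.1 and 185 CPM in the control libraries. Only tDR replicate 1 reached the level of a control library, that of control replicate 1. BIRC5's log2 fold change was -0.21 ± 0.05 (SE) (edgeR, adjusted p = 0.00335). TPX2, the activator of aurora A on spindle microtubules, had 253, 269.7, 248 and 257 CPM in the tDR libraries, against 278, 299.6, 286 and 279 CPM in the control libraries. These groups did not overlap, though the gap between them was small, and the log2 fold change was -0.15 ± 0.05 (SE) (edgeR, adjusted p = 0.015, and 0.0578 without tDR replicate 3, where the call was lost). Library size alone, background subtraction and at least 50 counts in 4 libraries also lost the TPX2 call (edgeR adjusted p = 0.302, 0.197 and 0.0749). CDCA8, or borealin, another passenger subunit, had 87.4, 80.8, 83.6 and 83.6 CPM in the tDR libraries, against 92.7, 91.7, 101 and 92.4 CPM in the control libraries. Control replicate 3 stood above the other controls, and the log2 fold change of CDCA8 was -0.17 ± 0.06 (SE) (edgeR, adjusted p = 0.0373). That call was lost without tDR replicate 2, 3 or 4 or control replicate 3 (edgeR adjusted p = 0.0944, 0.0693, 0.0796 and 0.0972). Library size alone, background subtraction and at least 50 counts in 4 libraries also lost the CDCA8 call (edgeR adjusted p = 0.314, 0.221 and 0.11).

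AURKA, aurora A kinase, had 74, 66.8, 77.1 and 73.6 CPM in the tDR libraries, against 85.2, 77.8, 77.5 and 86.9 CPM in the control libraries. The highest tDR library lay just under the lowest control library, and the log2 fold change of -0.17 ± 0.07 (SE) narrowly missed the threshold (edgeR, adjusted p = 0.0561). AURKA was called lower by DESeq2's test (adjusted p = 0.0375) and without tDR replicate 3, control replicate 2 or control replicate 3 (edgeR adjusted p = 0.047, 0.0301 and 0.0336). AURKB, the passenger complex kinase, and INCENP, its scaffold, had log2 fold changes of -0.13 and -0.09 and overlapped between groups. Both were called lower without control replicate 1 (edgeR adjusted p = 0.0134 for AURKB and 0.0186 for INCENP).

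Of the 5 spindle checkpoint genes, 2 were called lower, and all 5 had log2 fold changes below 0, with a median of -0.13. BUB1B encodes BUBR1, part of the mitotic checkpoint complex that inhibits the anaphase-promoting complex. It had 145, 121, 125 and 136 CPM in the tDR libraries, against 158, 156, 161 and 166 CPM in the control libraries. The control libraries lay within a narrow band above every tDR library, and the log2 fold change was -0.29 ± 0.06 (SE) (edgeR, adjusted p = 0.000116). MAD2L1, or MAD2, the checkpoint protein that binds CDC20 at unattached kinetochores, had 88, 85.9, 74.5 and 73.6 CPM in the tDR libraries, against 104, 93.6, 93.4 and 89 CPM in the control libraries. Its tDR replicates 3 and 4 were the lowest and its groups did not overlap, with a log2 fold change of -0.25 ± 0.07 (SE) (edgeR, adjusted p = 0.00491). BUB3, the partner of BUB1 and BUBR1, had 111, 114, 92.3 and 104 CPM in the tDR libraries, against 112, 112, 118 and 119 CPM in the control libraries. tDR and control libraries of BUB3 overlapped and its log2 fold change of -0.13 ± 0.06 (SE) was not called (edgeR, adjusted p = 0.102). TTK and BUB1, the checkpoint kinases, had log2 fold changes of -0.11 and -0.09 that were not called.

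Among the 11 centromere and kinetochore genes, 10 were tested and 4 of them called lower, with a median of -0.16. CENPF, a large protein of the outer kinetochore that accumulates in G2, had the smallest p-value of the tested genes of the 58 and lies at chromosome 1, 214603195 to 214664588 (GRCh38). CENPF had 818, 797, 773 and 779.6 CPM in the tDR libraries, against 1038, 999, 978 and 935 CPM in the control libraries. The groups were far apart for their spread, with means of 792 ± 20 CPM in tDR cells and 988 ± 42.9 CPM in control cells (SD, n = 4 each), and the log2 fold change was -0.32 ± 0.04 (SE) (edgeR, adjusted p = 7.51e-08). CENPE, the kinesin that carries chromosomes toward the spindle equator, had 253, 239.8, 237 and 248 CPM in the tDR libraries, against 317, 275, 287 and 289 CPM in the control libraries. Every tDR library lay below every control library, with a log2 fold change of -0.26 ± 0.05 (SE) (edgeR, adjusted p = 7.00e-05). NDC80, which binds the microtubule within the complex of the same name, had 49.9, 44.5, 52.2 and 47.2 CPM in the tDR libraries, against 55.2, 67.5, 66.3 and 62.7 CPM in the control libraries. Control replicate 1 was the control nearest to the tDR libraries, and the log2 fold change was -0.37 ± 0.08 (SE) (edgeR, adjusted p = 0.000312), a decrease of 22.8%.

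The other subunits of the NDC80 complex had log2 fold changes closer to 0. NUF2 was at -0.19, SPC25 at -0.13 and SPC24 at -0.04, and none of these was called (edgeR adjusted p = 0.0979, 0.261 and 0.645). NUF2 was called lower without tDR replicate 1 or control replicate 2 (adjusted p = 0.04 and 0.0197). Whether these subunits differ from NDC80 was not tested. CENPI, of the inner kinetochore, was named after its values were seen: it had 81.1, 83.8, 83.6 and 84.7 CPM in the tDR libraries, against 108, 91.1, 98.8 and 110.3 CPM in the control libraries, and it was called lower at -0.29 ± 0.06 (SE) (edgeR, adjusted p = 0.000439). CENPK of the inner kinetochore and KNL1, the docking site of BUB1 and BUB3, had log2 fold changes of -0.12 and -0.07, and CENPM was at 0.05. These genes overlapped between groups.

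Of the 8 mitotic kinesins, 4 were called lower and 4 were not called, with a median of -0.16. KIF20B, a motor of late cytokinesis, had 160.5, 138, 148 and 155 CPM in the tDR libraries, against 186, 172, 168 and 185 CPM in the control libraries. Every tDR library was below every control library, at a log2 fold change of -0.24 ± 0.05 (SE) (edgeR, adjusted p = 0.000645). KIF11, or Eg5, which slides antiparallel microtubules apart to separate the spindle poles, had 145, 154, 157 and 149.5 CPM in the tDR libraries, against 190.2, 176, 172 and 168 CPM in the control libraries. The control libraries were all above the tDR libraries, and the log2 fold change was -0.22 ± 0.05 (SE) (edgeR, adjusted p = 0.00143). KIF23, a subunit of centralspindlin at the midzone, had 128, 129, 120.1 and 119.9 CPM in the tDR libraries, against 144, 145, 145 and 138 CPM in the control libraries. These values gave a log2 fold change of -0.20 ± 0.06 (SE) (edgeR, adjusted p = 0.0046) with no overlap between groups. KIF20A, which relocates the passenger complex in anaphase, was named outside the rule, at -0.20 ± 0.06 (SE) (edgeR, adjusted p = 0.00866, and 0.0589 without tDR replicate 4, where the call was lost). Library size alone and background subtraction also lost the KIF20A call (edgeR adjusted p = 0.13 and 0.094). The kinesins KIF18A, KIF2C, KIF14 and KIF4A had log2 fold changes of -0.11, -0.09, -0.06 and 0.01, and none was called.

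The spindle assembly and cytokinesis genes had the lowest median of the 8 roles, -0.27 over the 6 tested of 8, and 5 of the 6 were called lower. HMMR, a spindle protein that binds hyaluronan outside the cell, had 73.5, 68.1, 74.1 and 60.3 CPM in the tDR libraries, against 93.4, 84.4, 93.4 and 82.1 CPM in the control libraries. Its groups were clearly apart, with tDR replicate 4 lowest, and the log2 fold change was -0.36 ± 0.07 (SE) (edgeR, adjusted p = 9.71e-05). ASPM, which works at spindle poles and is mutated in a form of microcephaly, had 408, 387, 391 and 378 CPM in the tDR libraries, against 524, 461, 466 and 487 CPM in the control libraries. Control replicate 1 was highest and all tDR libraries lay below all controls, with a log2 fold change of -0.31 ± 0.05 (SE) (edgeR, adjusted p = 8.46e-07). DLGAP5, or HURP, which stabilises kinetochore fibres, had 115, 112, 110.2 and 103 CPM in the tDR libraries, against 148, 129.7, 128 and 131 CPM in the control libraries. The decrease of DLGAP5 was 18.4%, at a log2 fold change of -0.29 ± 0.06 (SE) (edgeR, adjusted p = 0.000149). ECT2, the exchange factor that activates RhoA for furrowing, and CKAP2, a microtubule stabiliser, were both named outside the rule. They were called lower at -0.25 ± 0.06 (SE) and -0.23 ± 0.05 (SE) (edgeR adjusted p = 0.00111 and 0.000441), and in both no tDR library reached a control library. ANLN, or anillin, a scaffold of the contractile ring, was at -0.12 and not called (edgeR, adjusted p = 0.0882), though it was called lower without control replicate 2 (adjusted p = 0.0369).

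Of the 5 genes of anaphase ubiquitination and separase, 2 were called lower, with a median of -0.14. CDC20, the activator that directs the anaphase-promoting complex to securin, had 75, 76.3, 71.4 and 78.6 CPM in the tDR libraries, against 82.3, 106, 104 and 108 CPM in the control libraries. The gene lies at chromosome 1, 43358955 to 43363203 (GRCh38). Control replicate 1 was well below the other controls yet above all tDR libraries. The log2 fold change of CDC20 was -0.41 ± 0.07 (SE) (edgeR, adjusted p = 1.09e-05), a decrease of 24.6%. PTTG1, securin, the inhibitor that CDC20 marks for destruction, had 45.5, 37.5, 42.9 and 46.8 CPM in the tDR libraries, against 58.8, 50.9, 52.9 and 60.9 CPM in the control libraries. It lay lower in every tDR library than in any control library, at a log2 fold change of -0.37 ± 0.08 (SE) (edgeR, adjusted p = 0.000599). UBE2S, the enzyme that extends ubiquitin chains for the complex, had 114, 108, 110.2 and 113 CPM in the tDR libraries, against 119, 132, 118 and 123 CPM in the control libraries. No tDR library reached a control library, but the log2 fold change of -0.14 ± 0.06 (SE) was not called (edgeR, adjusted p = 0.0609), and it was called without control replicate 1 or control replicate 3 (adjusted p = 0.0271 and 0.0379). UBE2C, which starts those chains, and ESPL1, separase, had log2 fold changes of -0.04 and -0.02. Both overlapped between groups and were not called (edgeR adjusted p = 0.759 and 0.822).

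Among the 5 genes of mitotic chromosome structure, 4 were tested and 3 of them called lower, with a median of -0.18. TOP2A, the topoisomerase that untangles sister chromatids, had 619.6, 561, 559 and 554 CPM in the tDR libraries, against 694, 644, 663 and 639.8 CPM in the control libraries. tDR replicate 1 stood above the other tDR libraries yet below all controls, and the log2 fold change was -0.20 ± 0.04 (SE) (edgeR, adjusted p = 0.000509). MKI67, which encodes the proliferation antigen Ki-67 on the surface of mitotic chromosomes, had 1177, 1145, 1127 and 1096 CPM in the tDR libraries, against 1260.0, 1289, 1248 and 1256 CPM in the control libraries. Its means were 1136 ± 33.9 CPM in tDR cells and 1263 ± 17.8 CPM in control cells (SD, n = 4 each), and the log2 fold change of -0.15 ± 0.04 (SE) was small but larger than the spread between libraries (edgeR, adjusted p = 0.00381). NCAPG, a subunit of condensin I, had 124, 113, 114 and 116 CPM in the tDR libraries, against 149, 131, 131 and 136 CPM in the control libraries. Control replicate 1 was the highest and the groups did not overlap, with a log2 fold change of -0.23 ± 0.06 (SE) (edgeR, adjusted p = 0.00219). NCAPH, another condensin I subunit, was at -0.11 and not called (edgeR, adjusted p = 0.164).

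The 4 genes that did not pass the filter had few or no counts in any library. CENPN of the inner kinetochore and SMC4 of condensin had 0 counts in all 8 libraries. NUSAP1, a microtubule bundler, had 5 and 2 counts in tDR replicates 2 and 3 and 0 in each other library. PRC1, which bundles midzone microtubules, had 3, 4, 0 and 2 counts in the tDR libraries, against 3, 3, 9 and 4 counts in the control libraries. In GENCODE release 29, part of the exon bases of each is shared with another gene, 22.8% in CENPN, 25.6% in SMC4, 58.4% in PRC1 and 62.2% in NUSAP1. Their named partners CMC2 (beside CENPN), IFT80 (beside SMC4) and PRC1-AS1 (beside PRC1) also had 0 counts in all libraries. Other partners had counts, summed over 4 libraries of each group: TRIM59 (beside SMC4) had 90 in tDR and 52 in control libraries, AC068831.7 (beside PRC1) had 105 in tDR and 140 in control libraries, and AC092718.8 (beside CENPN) had 10 in tDR and 7 in control libraries. The low counts of the 4 genes were noticed after the values had been seen, and the sources used here do not say how the authors counted reads in shared exons. A count of 0 here therefore does not show that a gene was silent. Of the 58 genes, 20 shared at least 1 exon base with another gene. Of the 38 tested genes that shared none, 21 were called lower.

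Per kilobase of exon, the level differed widely within the 54 genes. CKS2 was at 78.2 CPM per kilobase in tDR cells and 104.0 in control cells, and TOP2A at 89.1 in tDR cells and 102.5 in control cells. ESPL1 had the lowest control level, 10.7 CPM per kilobase in tDR cells and 10.9 in control cells. As a description over the 54 genes, the log2 fold change had a Spearman correlation of -0.11 with mean level, 0.01 with exon length, 0.04 with gene span and 0.38 with GC content. Over the tested genes of the whole table these were -0.45, -0.02, 0.27 and 0.12. The points share the same 8 libraries and genes are not independent replicates.

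**Figure D4:**
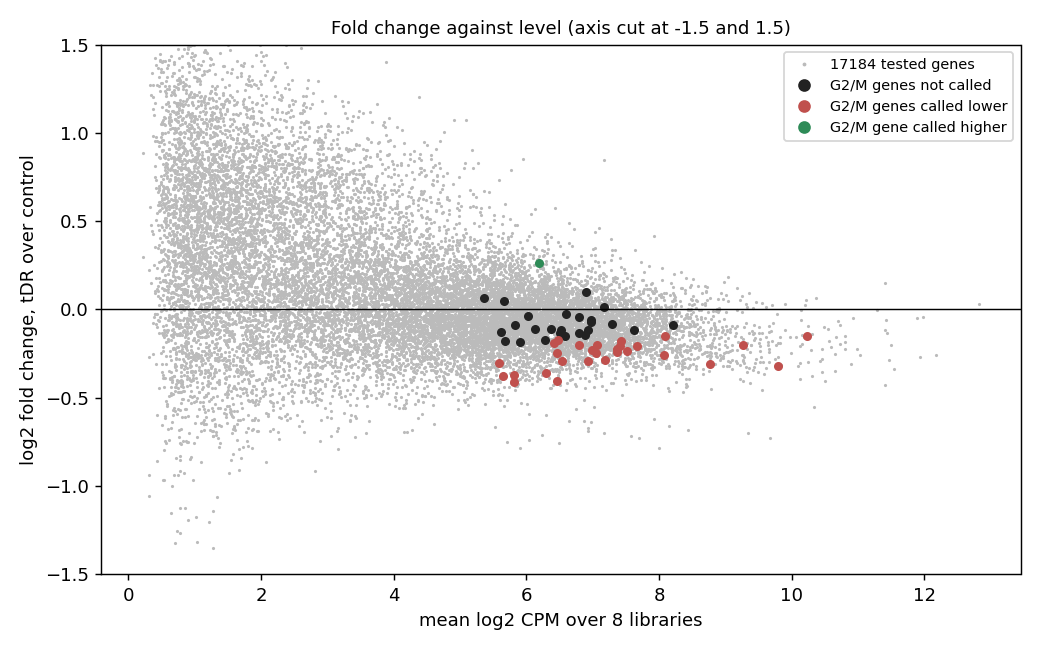
Log2 fold change (tDR over control, vertical axis) against mean log2 CPM over 8 libraries (horizontal axis) for 17184 tested genes in grey, with the 54 G2/M genes called lower in red, called higher in green and not called in black. Most of the 54 lie just below 0 at middle to high levels, and 94 grey genes above 1.5 are not drawn.

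The same test was read for 129 further mitotic genes in 7 lists, of which 116 were tested, 34 called lower and 4 higher, with a median of -0.12. The share called lower was 29.3%, beside 11.4% of all tested genes and 25.5% of tested genes at the levels of the 54 genes. It thus lay near the share at those levels. That range was set by the 54 genes, and no share was computed at the levels of the further genes or of any further list. Condensin and cohesin genes had the largest share called lower, 10 of 18. SMC3, a subunit of the cohesin ring, had 322, 327, 338 and 320.4 CPM in the tDR libraries, against 419, 402, 418 and 379.9 CPM in the control libraries. The groups were well apart, at a log2 fold change of -0.31 ± 0.05 (SE) (edgeR, adjusted p = 1.00e-06). RAD21, the cohesin subunit that separase cuts, and STAG1, which binds it, were called lower at -0.25 ± 0.05 (SE) and -0.25 ± 0.05 (SE) (edgeR adjusted p = 7.55e-05 and 0.000137). MAU2, of the cohesin loader, was named after its values were seen. It was called higher at 0.18 ± 0.07 (SE) (edgeR, adjusted p = 0.0411), a call lost without tDR replicate 2, 3 or 4 or control replicate 1, 3 or 4 (adjusted p 0.0607 to 0.230). Of 15 tested genes of the anaphase-promoting complex list, 6 were called lower, among them ANAPC13 and ANAPC15, small subunits, at -0.43 and -0.40, and FBXO5, or EMI1, the complex's inhibitor, at -0.27 (edgeR adjusted p = 0.00199, 0.0122 and 0.00316).

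Of 25 tested further centromere and kinetochore genes, 7 were called lower, led by SPDL1, which recruits dynein, at -0.25, CENPH of the inner kinetochore at -0.43 and ZW10, of the complex that recruits dynein, at -0.31 (edgeR adjusted p = 0.000363, 0.000732 and 0.00115). Their share called lower, 28%, was also near the 25.5% of tested genes at the levels of the 54 genes. Among 22 tested further spindle and cytokinesis genes, 7 were called lower and 1 higher. KIFC1, a minus-end motor, HAUS1, of the augmin complex, and KIF15, a partner of KIF11, were lower at -0.31, -0.54 and -0.24 (edgeR adjusted p = 0.000212, 0.000882 and 0.00168). KIF18B, a plus-end kinesin that was also named after its values were seen, was higher at 0.20 (edgeR, adjusted p = 0.0121, and 0.0513 without tDR replicate 4, where the call was lost). Fewer genes were called among further regulators of mitotic entry, 2 of 11, namely ENSA and BORA at -0.24 and -0.24, and among centriole and centrosome genes, 1 of 8, namely CENPJ at -0.36 (edgeR adjusted p = 0.00033, 0.0158 and 7.38e-05). The BORA call was lost without tDR replicate 3 (adjusted p = 0.0726).

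Of the 17 tested regulators of cell cycle transcription, 1 (5.88%) was called lower and 2 were called higher. Over all tested genes, 11.4% were called lower and 12.8% higher. The calls below are therefore given as single genes and not as a shift of this list. E2F5, a repressive E2F factor, was lower at -0.28 and MYBL2, or B-MYB, the activator of late cell cycle genes, higher at 0.13 (edgeR adjusted p = 0.0163 and 0.0336), and the MYBL2 call was lost without any one of the 4 tDR libraries, control replicate 1 or control replicate 3 (adjusted p 0.0633 to 0.137). CDKN1A, or p21, the inhibitor of cyclin-dependent kinases, had 25.7, 29.9, 27.5 and 21.7 CPM in the tDR libraries, against 11.1, 17.7, 19.6 and 17.7 CPM in the control libraries. All tDR libraries were above all control libraries, with a log2 fold change of 0.67 ± 0.13 (SE), a 1.59-fold level (edgeR, adjusted p = 9.55e-05). Among 27 tested G1/S and DNA replication genes, 16 were called lower and 0 higher, with a median of -0.19. This was 59.3%, beside 11.4% of all tested genes and 25.5% of tested genes at the levels of the 54 genes. A share at the levels of the G1/S genes themselves was not computed. MCM6 and MCM3, subunits of the replicative helicase, were lower at -0.36 and -0.28 (edgeR adjusted p = 2.95e-07 and 5.19e-06). Whether the G2/M genes differ from the G1/S genes was not tested.

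Across 17 ways of processing the same counts, 15 of the 28 genes called lower kept that call in every one: CKS2, BUB1B, CENPE, CENPF, CENPI, NDC80, KIF20B, ASPM, ECT2, HMMR, DLGAP5, CKAP2, CDC20, PTTG1 and TOP2A. The other 13 were lost with library size alone, and 6 of them also when some library was left out. Over all tested genes, 1962 were called lower as reported and 907 with library size alone. How many genes of the whole table kept their call in every way was not counted, so the 15 cannot be set beside a share. With background subtracted, 18 of the 54 (33.3%) were called lower, all among the 28, against 6.96% of all tested genes. The calls of CCNB2, CDK1, PLK1, BIRC5, CDCA8, TPX2, MAD2L1, KIF20A, KIF23 and MKI67 were lost there. With at least 50 counts in 4 libraries, 24 of the 54 were called lower, against 11.8% of all tested genes. Leaving each library out in turn gave 24 to 32 of the 54 called lower, against 8.76% to 12.1% of all tested genes.

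**Figure D5:**
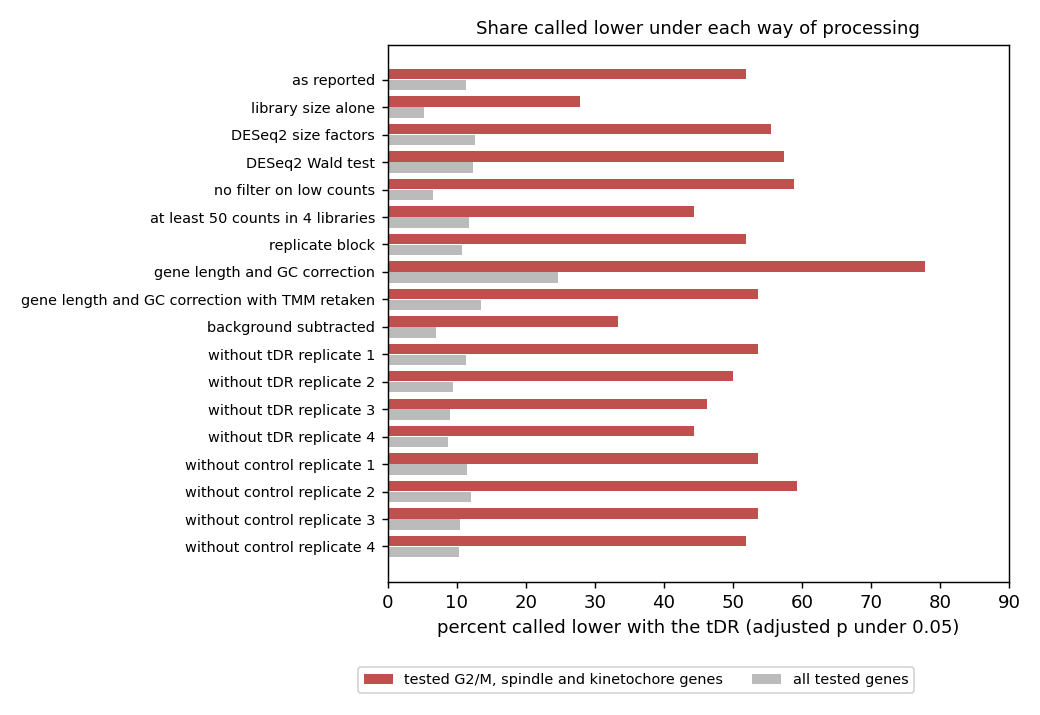
Percent called lower (adjusted p under 0.05) under each way of processing, for the tested G2/M, spindle and kinetochore genes (red) and for all tested genes (grey). The share of the G2/M genes is 51.9% as reported and 27.8% with library size alone, and under every setting drawn it is above the share of all tested genes. The share of tested genes at the same levels, 25.5% as reported, was not computed under the other settings.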

How the data were processed

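The authors deposited whole-number read counts per gene for 4 tDR and 4 control libraries, prepared per the labels' protocols from TRIzol-extracted RNA with a stranded SMARTer Pico kit (v2) for total RNA. The submitters' processing notes name STAR 2.7.8a, featureCounts 2.0.2, cutadapt 2.10, DESeq2 1.30.1 and FastQC 0.11.9, beside GRCh38.p13 and hg38 as builds. The sources used here give no strand setting, annotation release or rule for multiply mapped reads, which makes counts of overlapping genes uncertain. Library totals ran from 5848305 to 10557740 counts, which sets the counting precision.

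Counts were tested with edgeR 4.0.16 in R 4.3.3 by its quasi-likelihood F test, with TMM scaling, edgeR's filter on low counts, group as the only term and Benjamini-Hochberg adjustment over 17184 genes. Called means an adjusted p under 0.05. CPM uses TMM-scaled library sizes. DESeq2 1.42.0 served as an alternative, and smooths on length and GC content used mgcv 1.9.3. The steps were also run on simulated counts, with fold changes larger than most of those reported here. Recovery of changes as small as most of these was not tested. Positions and exon lengths came from GENCODE release 29 (GRCh38), matched by symbol for 57056 genes (94.1%). Named were the 3 genes with the smallest p of each role, genes called higher and 7 genes chosen by function (CDK1, CCNB1, PLK1, AURKA, FOXM1, MKI67 and TOP2A), then up to 3 called genes of each further list and CDKN1A. A single result that this rule names is not reported here. The genes and lists were chosen with earlier results of these data known.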

Additional observations from a re-analysis of the deposited data

Results flagged for a closer look

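Of 108 groups of 4 libraries checked, 2 for each tested gene, 7 had 1 library standing apart from the other 3 by Dixon's test of the gap over the range. Chance flags about 1 group in 20. Control replicate 1 accounted for 4 of them. DLGAP5 was at 147.9 CPM and ECT2 at 156 CPM there, above the other controls (128 to 131 CPM for DLGAP5 and 139 to 141 CPM for ECT2). CDC20 was at 82.3 CPM and CENPM at 40.4 CPM there, below the other controls (104 to 108 CPM for CDC20 and 52.0 to 53.4 CPM for CENPM). CDCA8 was at 101 CPM in control replicate 3, above 91.7 to 92.7 CPM in the other controls. In the tDR group, KIF14 was at 130.5 CPM in replicate 3, above the other tDR replicates, the highest of which was at 121 CPM. TOP2A was at 619.6 CPM in tDR replicate 1, above 554 to 561 CPM in the others. Of these genes, CDCA8 alone lost its call when the library that stood apart was left out, and CENPM and KIF14 were not called with all libraries.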

How the results depend on the processing

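Each count was recomputed under 17 alternatives. Of these, the length and GC correction with TMM factors taken again was chosen after seeing the data, since the correction itself had moved the median of all genes. It gave 29 of the G2/M genes lower and 1 higher, against 42 and 0 under the correction itself. Library size alone gave 15 lower and 2 higher G2/M genes, and 16 lower and 13 higher further mitotic genes. Over all 17184 tested genes, 907 were then lower and 3295 higher. Background subtraction gave 18 lower and 2 higher G2/M genes, and 16 lower and 8 higher further mitotic genes. Over all 14604 genes tested there, 1016 were lower and 1092 higher. The length and GC correction itself gave 4125 lower and 1479 higher genes over all, and 65 lower and 1 higher further mitotic genes. DESeq2's Wald test gave 2202 lower and 1456 higher genes over all. The further mitotic genes called higher, 4 as reported, were 2 with DESeq2 size factors, 2 with DESeq2's test, 2 with no filter and 9 with at least 50 counts in 4 libraries. Leaving out each library in turn gave 24 to 32 G2/M genes lower and 0 to 1 higher, 1511 to 2109 lower and 1640 to 2200 higher genes over all, and 27 to 40 lower and 1 to 4 higher further mitotic genes. The 0 higher came without control replicate 1, and the causes of these shifts were not tested. Of 833 values of 49 named genes under the alternatives, 758 kept direction and call, 57 lost a call, 18 gained one and 0 changed sign.

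With a replicate block the same 28 genes were called lower and 1 higher. Same-numbered libraries correlated at -0.03 to 0.07 in their deviations and other pairs at -0.08 to 0.06. These ranges overlap, and so few pairs cannot show whether same-numbered libraries shared a culture or a preparation. Every pair of libraries differed by more than counting noise (chi-square per degree of freedom 2.13 to 7.36). With counts of 222 or more per library, SEs of log2 fold changes were 0.04 to 0.09, and the smallest change called lower was 10.0%.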
